A study of Mus musculus with 8 samples.

Results

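The 29 genes described here carry out or control the making of cholesterol in the liver and its movement within and out of the cell. They were chosen by name, with earlier results of these data known. They were found among the 54309 genes of the count table through their Ensembl identifiers. The set holds 8 enzymes of the mevalonate arm, 11 enzymes from squalene to cholesterol, 4 genes of the SREBP2 sterol sensor, and 6 genes of transport, storage, uptake and export. Bulk polyA RNA-seq was made from whole livers of male C57BL/6 mice. Each mouse ate the fructose-palmitate-cholesterol (FPC) diet for 16 weeks, a diet used to bring on non-alcoholic steatohepatitis (NASH). From week 8 to week 16 the antiCD47 mice received anti-CD47 antibody and the IgG mice received IgG, both by intraperitoneal injection, with 200 µg per mouse stated. CD47 is the surface signal that engages SIRPα on phagocytes. All mice had intact genes and the same diet, no group on another diet was analysed here, and ages were not stated. There were 4 antiCD47 libraries and 4 IgG libraries, each taken as 1 liver, so the p-values measure the spread between these samples.

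Cholesterol is built from acetyl-CoA by way of mevalonate, isoprenoids, squalene and lanosterol. When endoplasmic reticulum (ER) membranes are rich in sterol, the INSIG proteins hold SCAP and its cargo SREBP2 in the ER. When sterol is scarce, SCAP escorts SREBP2 to the Golgi, where proteases release a transcription factor that binds sterol regulatory elements in the promoters of the synthesis genes. Oxysterols also activate the nuclear receptor LXR, which drives exporters such as the ABCG5 and ABCG8 pair that secretes sterol into bile.

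Promoter sequence was matched by symbol for 23 of the 29 genes, in 30 RefSeq windows (GRCm38.p6) of 250 bases before to 50 bases after an annotated start. Letters were searched on both strands. TCACNNCAC is a loose form of the sterol regulatory element, CCAAT is the box bound by NF-Y, a usual partner of SREBP, and CACGTG is the E-box. TCACNNCAC stood in 4 windows of 4 sterol genes (13.3% of their windows, against 3.77% of all 32851 windows). CCAAT stood in 21 of the 30 windows, against 37.4% of all, and CACGTG in 6 of them, of 5 genes, against 7.15% of all. Overlapping windows of Scap counted the same CACGTG more than once. The windows with TCACNNCAC belong to Hmgcs1, Msmo1, Dhcr7 and Hsd17b7, and their 250 bases before the start are printed. None of these 4 genes passed the edgeR test with all 8 libraries. The first 3 passed without antiCD47 1, a library left out after its values were known, which is why these windows were chosen. Hsd17b7 passed in neither fit and is printed because its window also holds TCACNNCAC. A link of the motif to the fold changes was not tested. Of the other genes that passed without antiCD47 1, Mvk, Idi1, Nsdhl, Sc5d, Tmem97 and Abcg8 had no TCACNNCAC in their windows. Fdps, Fdft1 and Sqle, which passed as well, had no matched window. Capitals mark TCACNNCAC, read 5′ to 3′ on the gene's strand.
Hmgcs1, chr13:119690101-119690350, plus strand: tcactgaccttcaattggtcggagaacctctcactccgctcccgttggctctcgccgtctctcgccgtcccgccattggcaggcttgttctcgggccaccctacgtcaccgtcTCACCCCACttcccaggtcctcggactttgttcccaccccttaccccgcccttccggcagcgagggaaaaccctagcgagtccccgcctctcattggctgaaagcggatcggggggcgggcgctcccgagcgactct
Msmo1, chr8:64733579-64733828, minus strand: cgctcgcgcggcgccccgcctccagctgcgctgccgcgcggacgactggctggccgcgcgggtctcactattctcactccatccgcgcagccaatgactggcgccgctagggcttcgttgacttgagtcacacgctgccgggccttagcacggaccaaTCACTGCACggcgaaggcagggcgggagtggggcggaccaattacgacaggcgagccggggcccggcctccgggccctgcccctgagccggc
Dhcr7, chr7:143823149-143823398, plus strand: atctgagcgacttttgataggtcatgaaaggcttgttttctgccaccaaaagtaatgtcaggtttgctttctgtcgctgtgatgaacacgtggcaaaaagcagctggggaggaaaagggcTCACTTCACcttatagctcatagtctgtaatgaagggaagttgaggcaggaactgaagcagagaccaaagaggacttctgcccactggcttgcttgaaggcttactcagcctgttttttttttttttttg
Hsd17b7, chr1:169969206-169969455, minus strand: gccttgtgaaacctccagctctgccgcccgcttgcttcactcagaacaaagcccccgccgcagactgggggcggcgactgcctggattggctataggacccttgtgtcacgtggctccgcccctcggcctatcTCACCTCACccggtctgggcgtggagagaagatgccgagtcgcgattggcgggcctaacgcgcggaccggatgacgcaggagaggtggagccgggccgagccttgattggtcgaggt
The capitals begin 137 bases before the start in Hmgcs1, 92 in Msmo1, 130 in 1 of 3 windows of Dhcr7, and 117 in Hsd17b7. In Msmo1 the first base of the capitals is also the last base of a CCAAT that begins 96 bases before the start. A match is a description of letters and not a shown binding site.

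Abcg5 and Abcg8 lie head to head on chromosome 17 and are transcribed away from each other. Their annotated starts are 110 bases apart, and the stretch between them is printed because Abcg8 was the single gene of the set to pass the edgeR test with all 8 libraries. It is in lower case throughout, as none of the 3 motifs stood within it. A CCAAT that begins 114 bases before the Abcg8 start ends on the base just before this stretch. The same CCAAT lies at the Abcg5 start, read on the other strand of that gene. Another CCAAT begins 175 bases before the Abcg8 start.
Abcg5 to Abcg8, chr17:84683012-84683120, plus strand: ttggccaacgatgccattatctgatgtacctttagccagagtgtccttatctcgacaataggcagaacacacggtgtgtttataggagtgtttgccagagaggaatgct

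Library totals lay between 43691472 and 55477484 counts, and 15472 genes were tested. Albumin and the other hepatocyte markers were abundant in every library, with all 10 listed markers detected and a summed level of 60240 to 71280 CPM (counts scaled to the library's size) in antiCD47 livers and 57320 to 62460 CPM in IgG livers. Among markers of other liver cells, 7 of 8 cholangiocyte genes and 4 of 8 stellate and myofibroblast genes fell, while 6 of 8 Kupffer and macrophage genes and all 7 tested of 8 neutrophil genes rose (edgeR, Benjamini-Hochberg adjusted p under 0.05). Of all tested genes, 5.4% fell and 5.44% rose. The stellate and myofibroblast genes that fell were Col1a1, Col1a2, Col3a1 and Lox, while Des, Pdgfrb, Dcn and Acta2 did not pass. Summed levels of the lists were 30.9 to 50.7 CPM in antiCD47 livers and 73.2 to 97.6 CPM in IgG livers for cholangiocytes. They were 447 to 639 CPM in antiCD47 livers and 741 to 1057 CPM in IgG livers for the stellate and myofibroblast genes. They were 406 to 708 CPM in antiCD47 livers and 226 to 397 CPM in IgG livers for macrophages, and 15.9 to 35.1 CPM in antiCD47 livers and 6.62 to 8.93 CPM in IgG livers for neutrophils. Of 10 hepatocyte genes 1 rose, and of 6 periportal genes 1 fell. None of 7 pericentral genes passed (5 higher at an unadjusted p under 0.05 with edgeR, 3 called higher by DESeq2, 0 by limma voom), and none of 8 lymphocyte genes did (1 higher at an unadjusted p under 0.05 with edgeR, 0 called by DESeq2 and by limma voom). No marker was at 0 in every library. The antiCD47 1 liver had the highest cholangiocyte and stellate sums and the lowest macrophage sum of the antiCD47 livers. The part of these shifts in the sterol gene results was not tested, and in whole liver fewer cells of a type cannot be told apart from less RNA per cell.

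All 29 sterol genes passed the filter on low counts. Abcg8 fell, and no other gene passed in either direction (edgeR quasi-likelihood test, Benjamini-Hochberg adjusted p under 0.05). Of all tested genes, 5.4% fell and 5.44% rose. At an unadjusted p under 0.05, 6 sterol genes were lower and 1 was higher (16.0% and 16.6% of all tested genes). DESeq2 called 6 sterol genes lower (9.64% of all genes) and 0 higher (10.9%), and limma voom called 1 lower (6.11%) and 0 higher (5.21%). The fold change was negative for 22 of 29 genes, and positive for 7, against 51.0% and 49.0% of all tested genes, and its median was -0.16 on the log2 scale, against -0.01 over all tested genes. By role the median was -0.14 in the mevalonate arm, -0.22 from squalene to cholesterol, -0.08 in the sensor and -0.17 in transport, storage, uptake and export.

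The antiCD47 livers were not alike. In antiCD47 2, 3 and 4, between 11 and 15 of the 19 synthesis enzymes lay under every IgG liver, whereas antiCD47 1 had 1 enzyme under and 9 above them. The summed level of the 19 synthesis enzymes was 1254, 888, 909 and 845 CPM in antiCD47 livers 1 to 4, against 1226, 1053, 1121 and 1118 CPM in IgG livers 1 to 4. Only antiCD47 1 was above the IgG livers in this sum, and the other antiCD47 livers were below all of them. Over the whole set of 29, the genes below the lowest IgG liver numbered 5 in antiCD47 1, 16 in antiCD47 2, 20 in antiCD47 3 and 22 in antiCD47 4. The same share over all tested genes was 24.4%, 37.5%, 33.1% and 30.7% in that order. The genes above the highest IgG liver numbered 10, 6, 3 and 2 in that order, against 24.1%, 36.6%, 30.7% and 30.3% of all tested genes.

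**Figure D1:**
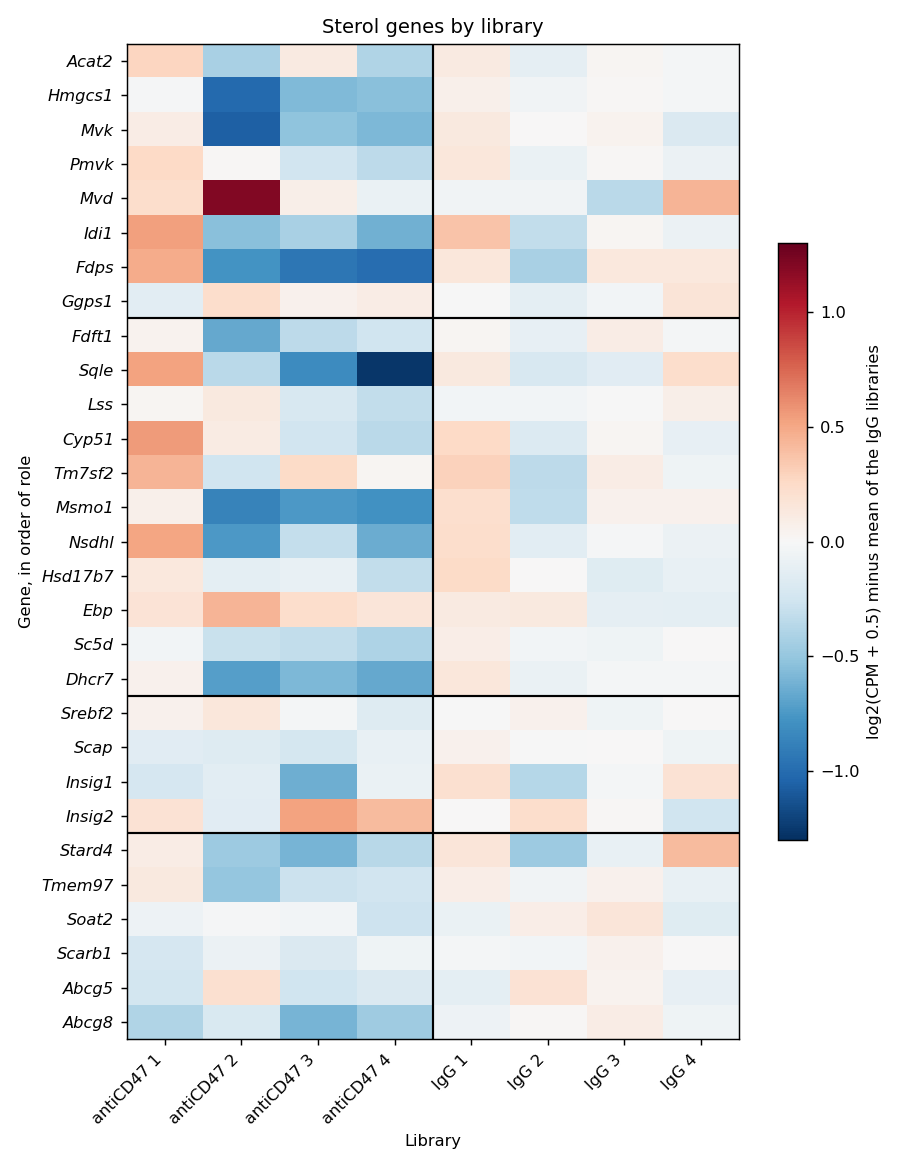
Each cell is log2(CPM + 0.5) of one gene (rows, in order of role) in one library (columns, antiCD47 then IgG) minus the mean of the 4 IgG libraries; black lines part the roles and the groups. The median of the 19 synthesis enzymes was 0.18 in antiCD47 1 and -0.35, -0.31 and -0.39 in antiCD47 2, 3 and 4, against 0.13, -0.11, 0.01 and -0.03 in IgG 1 to 4.

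**Figure D2:**
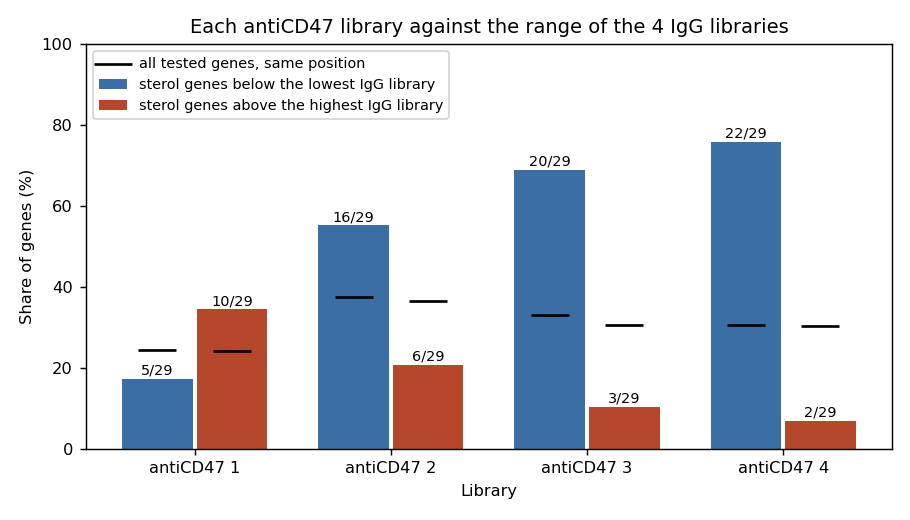
For each antiCD47 library, bars give the share of the 29 genes below the lowest or above the highest IgG library, and the black dash gives the same share over all 15472 tested genes. In antiCD47 4, 22 genes were below and 2 above, and in antiCD47 1, 5 were below and 10 above.

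In the mevalonate arm, none of the 8 genes passed the test in either direction (1 lower at an unadjusted p under 0.05 with edgeR, 1 called lower by DESeq2, 0 called by limma voom). Hmgcs1, which joins acetyl-CoA and acetoacetyl-CoA into HMG-CoA, had 141, 70.1, 95.3 and 97.2 CPM in antiCD47 livers 1 to 4, against 148, 137, 143 and 139 CPM in IgG livers 1 to 4. The IgG livers were close together, antiCD47 1 was among them, and the other antiCD47 livers were below them all. The log2 fold change was -0.49 ± 0.17 (SE, n = 4 each), with an edgeR Benjamini-Hochberg adjusted p of 0.085. Fdps makes farnesyl diphosphate, the branch point to sterols and to protein prenylation. Its level was 131, 54.2, 48.3 and 46.9 CPM in antiCD47 livers, against 103, 69.6, 103 and 103 CPM in IgG livers, a log2 fold change of -0.43 ± 0.32 (edgeR adjusted p = 0.367). The groups overlapped through antiCD47 1, the highest of all 8 livers, while the other antiCD47 livers were below IgG 2. Idi1, the isomerase of the building blocks of isoprenoids, had 61.0, 28.7, 31.4 and 27.0 CPM in antiCD47 livers, against 54.7, 33.6, 42.7 and 39.7 CPM in IgG livers. The antiCD47 1 liver was again the highest of all 8 and the others were below all IgG livers, with a log2 fold change of -0.20 ± 0.26.

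Mvk, mevalonate kinase, had 8.48, 3.54, 5.35 and 5.12 CPM in antiCD47 livers, against 8.71, 7.97, 8.21 and 6.90 CPM in IgG livers (log2 fold change -0.50 ± 0.22, edgeR adjusted p = 0.155). Only antiCD47 1 reached the IgG range. Acat2, the thiolase that makes acetoacetyl-CoA, averaged 64.3 ± 16.0 CPM in antiCD47 livers and 67.8 ± 4.45 CPM in IgG livers (SD, n = 4 each), and its reads may be shared with a close mouse paralogue. Pmvk, the next kinase, averaged 20.8 ± 4.05 CPM in antiCD47 livers and 21.7 ± 1.68 CPM in IgG livers. These groups overlapped, and both log2 fold changes were under 0.1 in size, at -0.08 and -0.06. Mvd, the decarboxylase that follows, stood the other way, with 4.88, 10.1, 4.34 and 3.82 CPM in antiCD47 livers, against 3.93, 3.95, 3.09 and 5.74 CPM in IgG livers. Its log2 fold change of 0.47 ± 0.31 (edgeR adjusted p = 0.323) rested on antiCD47 2, and its lowest library held 165 counts, the fewest of the set. Ggps1, which makes geranylgeranyl diphosphate for prenylation, averaged 9.42 ± 1.02 CPM in antiCD47 livers and 8.98 ± 0.837 CPM in IgG livers.

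From squalene to cholesterol, none of the 11 genes passed (3 lower and 1 higher at an unadjusted p under 0.05 with edgeR, 3 called lower by DESeq2, 0 called by limma voom). Over all tested genes, 16.0% were lower and 16.6% higher at that unadjusted p. Fdft1, squalene synthase and the first committed step to sterols, had 73.8, 45.2, 56.6 and 59.9 CPM in antiCD47 livers, against 73.0, 66.6, 76.8 and 70.6 CPM in IgG livers. The antiCD47 1 liver lay among the IgG livers and the others lay below them. The log2 fold change was -0.29 ± 0.13 (edgeR adjusted p = 0.156). Sqle, the epoxidase that limits flux after squalene, had 16.3, 8.74, 6.14 and 4.38 CPM in antiCD47 livers, against 12.3, 9.64, 10.1 and 13.3 CPM in IgG livers. The antiCD47 livers held both the highest and the lowest values, and the log2 fold change of -0.35 ± 0.34 was about the size of its error.

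Lss, which closes the ring to lanosterol, averaged 25.3 ± 3.68 CPM in antiCD47 livers and 26.8 ± 1.01 CPM in IgG livers. Cyp51, the lanosterol demethylase, averaged 41.3 ± 12.4 CPM in antiCD47 livers and 39.9 ± 5.50 CPM in IgG livers. Tm7sf2, a sterol reductase, averaged 24.1 ± 5.05 CPM in antiCD47 livers and 22.2 ± 4.11 CPM in IgG livers. The groups overlapped for these 3 genes, and antiCD47 1 had the highest Cyp51 and Tm7sf2 of all 8 livers.

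The enzymes that strip methyl groups from the ring were Msmo1, Nsdhl and Hsd17b7. Msmo1, the methyl sterol oxidase, had 44.5, 23.0, 25.0 and 24.3 CPM in antiCD47 livers, against 49.5, 33.7, 44.3 and 44.1 CPM in IgG livers. Its log2 fold change of -0.55 ± 0.21 was the most negative of the 29 (edgeR adjusted p = 0.106), and again antiCD47 1 alone was within the IgG range. Nsdhl, the decarboxylating dehydrogenase, had 30.2, 12.3, 16.8 and 13.2 CPM in antiCD47 livers, against 24.6, 19.0, 20.8 and 19.9 CPM in IgG livers, with antiCD47 1 the highest and the others the lowest. Hsd17b7, the ketoreductase of the same complex, averaged 30.2 ± 3.94 CPM in antiCD47 livers and 32.4 ± 4.24 CPM in IgG livers, a log2 fold change of -0.10 ± 0.12. Of the genes with a printed TCACNNCAC window, Hsd17b7 had the smallest change. With all 8 libraries the groups overlapped for each of these genes.

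The last steps did not all lean one way. Ebp, the sterol isomerase, had 109, 132, 113 and 108 CPM in antiCD47 livers, against 104.8, 105.4, 89.1 and 88.4 CPM in IgG livers. Every antiCD47 liver was above every IgG liver, the only such gene of the 29 (9.51% of all tested genes), with a log2 fold change of 0.25 ± 0.09 (edgeR adjusted p = 0.091). Sc5d, the desaturase, had 326, 275, 268 and 253 CPM in antiCD47 livers, against 355, 328, 323 and 336 CPM in IgG livers. The antiCD47 1 liver lay just within the IgG range and the others below it (log2 fold change -0.26 ± 0.09, edgeR adjusted p = 0.076). Dhcr7, the reductase that yields cholesterol itself, had 40.2, 23.3, 25.5 and 24.1 CPM in antiCD47 livers, against 42.7, 36.3, 37.8 and 37.8 CPM in IgG livers (log2 fold change -0.45 ± 0.16, edgeR adjusted p = 0.094). Only antiCD47 1 was within the IgG range. Per length, Sc5d and Ebp were the most abundant of the synthesis enzymes, at a mean of 57.6 and 50.03 CPM per kb of exon in antiCD47 livers, against 69.0 and 42.0 CPM per kb in IgG livers. Sqle, Mvk and Ggps1 were among the least abundant, at 1.61, 2.10 and 2.00 CPM per kb in antiCD47 livers, against 2.04, 2.97 and 1.90 CPM per kb in IgG livers.

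**Figure D3:**
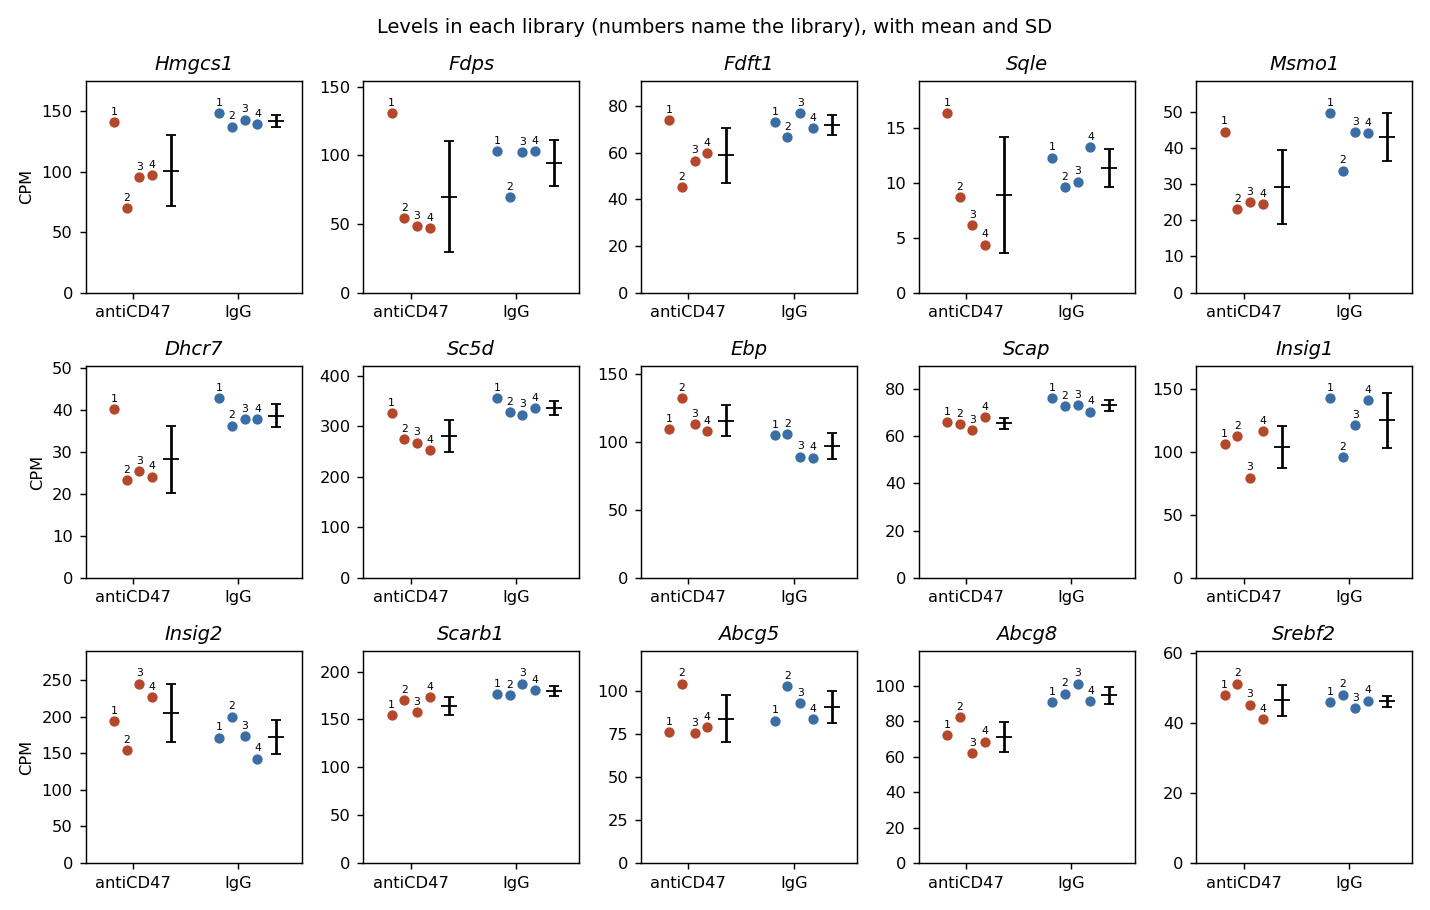
Points are CPM of 15 genes in single libraries (digits name the library), antiCD47 on the left and IgG on the right of each panel, with the mean and SD as black bars on axes that start at 0. For Hmgcs1, Msmo1 and Dhcr7 the antiCD47 1 point sits at 141, 44.5 and 40.2 CPM and the other antiCD47 points sit below all IgG points.

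Without antiCD47 1, 12 sterol genes fell and none rose (edgeR adjusted p under 0.05, 1 higher at an unadjusted p under 0.05), against 11.4% of all tested genes lower and 11.7% higher in the same fit. Of the 12, 10 were synthesis enzymes: Hmgcs1, Mvk, Idi1, Fdps, Fdft1, Sqle, Msmo1, Nsdhl, Sc5d and Dhcr7. The other two were Tmem97 and Abcg8. The log2 fold change without antiCD47 1 was -0.93 ± 0.14 for Fdps (adjusted p = 0.00613) and -0.83 ± 0.12 for Msmo1 (0.00582), by edgeR. It was -0.70 ± 0.11 for Hmgcs1 (0.00692) and -0.67 ± 0.08 for Dhcr7 (0.00393), by the same test. This library was left out after its values were known, and the share of genes called in the whole table moved with it, to 23.1% against 10.8% with all 8 libraries. Leaving out antiCD47 2, 3 or 4 instead gave 1, 0 and 1 sterol genes lower by edgeR (2.47%, 0.0254% and 5.28% of all tested genes). The log2 fold change of Hmgcs1 was -0.35, -0.47 and -0.47 in these fits. The limma voom quality weight, taken over all genes, was lowest for antiCD47 2 (0.398, against 0.621 for antiCD47 1).

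**Figure D4:**
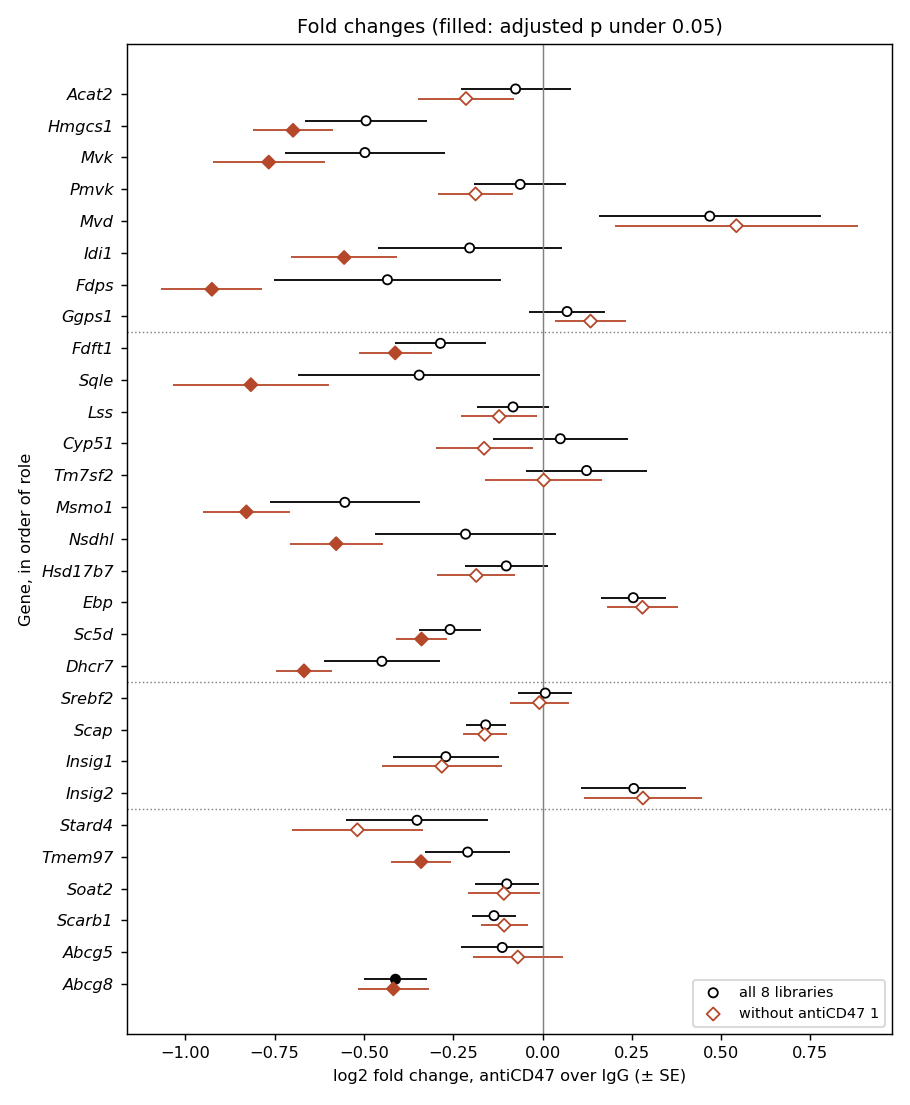
Points give the log2 fold change (antiCD47 over IgG) with its SE for each gene, black circles with all 8 libraries and red diamonds without antiCD47 1; filled points have an edgeR adjusted p under 0.05. One circle is filled (Abcg8) and 12 diamonds are.

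None of the 4 sensor genes passed (1 lower at an unadjusted p under 0.05 with edgeR, 1 called lower by DESeq2, 0 called by limma voom). Srebf2, the gene of the SREBP2 transcription factor, had 48.1, 51.3, 45.3 and 41.1 CPM in antiCD47 livers, against 46.0, 48.2, 44.3 and 46.4 CPM in IgG livers. Its log2 fold change was 0.01 ± 0.08, and the order of its libraries was not that of the synthesis enzymes, with antiCD47 2 the highest. Scap, the escort, had 65.9, 65.2, 62.5 and 68.2 CPM in antiCD47 livers, against 76.1, 72.8, 73.1 and 70.4 CPM in IgG livers. All antiCD47 livers, antiCD47 1 included, were below all IgG livers, yet the log2 fold change of -0.16 ± 0.06 missed the threshold (edgeR adjusted p = 0.088). It passed in 4 of 18 alternatives, DESeq2 among them (adjusted p = 0.0437).

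Insig1 and Insig2 encode the ER anchors. Insig1, itself an SREBP target, had 106, 113, 79.6 and 117 CPM in antiCD47 livers, against 143, 95.9, 122 and 141 CPM in IgG livers (log2 fold change -0.27 ± 0.15, edgeR adjusted p = 0.236). Insig2 had 194, 154, 245 and 227 CPM in antiCD47 livers, against 171, 200, 173 and 143 CPM in IgG livers (log2 fold change 0.26 ± 0.15, edgeR adjusted p = 0.257). Both overlapped between the groups, with fold changes of opposite sign. The log2 ratio of Insig1 to Insig2 counts was -0.87, -0.45, -1.62 and -0.96 in antiCD47 livers, against -0.27, -1.06, -0.51 and -0.02 in IgG livers. The difference of -0.51 was within the spread (two-sided exact permutation p = 0.229, where the smallest possible for 4 against 4 is 0.0286). Per length, Insig2 was at 59.0 CPM per kb in antiCD47 livers and 49.4 CPM per kb in IgG livers, and Insig1 was at 33.6 CPM per kb in antiCD47 livers and 40.5 CPM per kb in IgG livers.

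Of the 6 genes of transport, storage, uptake and export, 1 fell and none rose, and all 6 had a negative fold change. Abcg8, one of the paired half-transporters that send sterol into bile, had 72.2, 82.3, 61.9 and 68.5 CPM in antiCD47 livers, against 90.7, 95.6, 101 and 91.3 CPM in IgG livers. Every antiCD47 liver was below every IgG liver, at a mean of 71.2 ± 8.54 CPM in antiCD47 livers and 94.8 ± 4.90 CPM in IgG livers (SD, n = 4 each), or 75.2% of the IgG mean. The log2 fold change was -0.41 ± 0.09 (edgeR Benjamini-Hochberg adjusted p = 0.027). It stayed past the threshold in 14 of 18 alternatives, with antiCD47 1 left out as well (adjusted p = 0.020). It was not past it without antiCD47 3 (adjusted p = 0.078), IgG 1 (0.066), IgG 3 (0.080) or IgG 4 (0.074), fits in which 0.0254%, 0.53%, 0.287% and 0.0% of all tested genes were called lower by edgeR.

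Abcg5 encodes the partner without which ABCG8 does not leave the ER. It had 76.3, 104, 75.6 and 79.2 CPM in antiCD47 livers, against 82.9, 103, 93.2 and 83.7 CPM in IgG livers. Here antiCD47 2 was the highest of all 8, the groups overlapped, and the log2 fold change was -0.11 ± 0.12 (edgeR adjusted p = 0.530). The log2 ratio of Abcg8 to Abcg5 counts was -0.08, -0.34, -0.29 and -0.21 in antiCD47 livers, against 0.13, -0.11, 0.12 and 0.13 in IgG livers. The groups overlapped through IgG 2 and antiCD47 1. The difference of -0.30 had a two-sided exact permutation p of 0.0571, so a smaller change of Abcg5 than of Abcg8 was not shown. The exons of the pair share 82 bases on opposite strands in GENCODE M21, and whether the counting used strand was not stated.

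**Figure D5:**
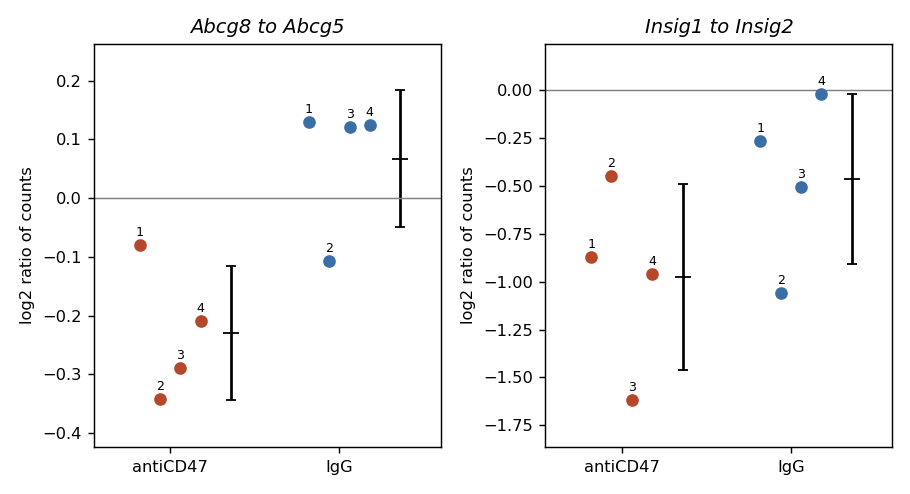
Points are the log2 ratio of counts of 2 genes within each library, Abcg8 to Abcg5 on the left and Insig1 to Insig2 on the right, with the mean and SD as bars and antiCD47 left of IgG. The mean Abcg8 to Abcg5 ratio was -0.23 in antiCD47 livers and 0.07 in IgG livers, and in both panels the groups overlap.

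Scarb1, the receptor that takes cholesterol from HDL, had 154, 170, 157 and 173 CPM in antiCD47 livers, against 177, 175, 187 and 180 CPM in IgG livers. The groups did not overlap (19.6% of all tested genes, either direction), but the log2 fold change of -0.14 ± 0.06 missed the threshold (edgeR adjusted p = 0.165). With Scap and Abcg8 it made 3 of 29 genes with every antiCD47 liver below every IgG liver, against 10.1% of all tested genes. Soat2, which esterifies cholesterol for storage and secretion, had 30.9, 31.9, 31.6 and 26.8 CPM in antiCD47 livers, against 30.4, 34.4, 36.03 and 29.01 CPM in IgG livers, with overlap and a log2 fold change of -0.10 ± 0.09. Stard4, a soluble sterol carrier, averaged 43.0 ± 9.79 CPM in antiCD47 livers and 54.9 ± 14.0 CPM in IgG livers (log2 fold change -0.35 ± 0.20). Tmem97, the sigma-2 receptor of the ER, had 79.7, 51.5, 60.2 and 61.4 CPM in antiCD47 livers, against 77.5, 70.5, 76.0 and 68.4 CPM in IgG livers. The antiCD47 1 liver was the highest of all 8, and the other antiCD47 livers were below all IgG livers.

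Related genes from lists around the pathway were read beside the set. Their median log2 fold changes were 0.09 for SREBP processing and turnover, 0.08 for LXR and efflux and -0.08 for endosomal and membrane sterol transfer. They were 0.32 for sterol catabolism, -0.04 for accessory and branch enzymes and -0.23 for the acetyl-CoA supply. In SREBP processing and turnover, 1 of 8 genes fell. Srebf1, the gene of the fatty acid regulator SREBP1, had 234, 214.5, 218 and 261.5 CPM in antiCD47 livers, against 290, 314, 283 and 290 CPM in IgG livers (log2 fold change -0.34 ± 0.08, edgeR adjusted p = 0.029). The groups did not overlap, and antiCD47 1 stood with the other antiCD47 livers.

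In the LXR and efflux list, 2 of 8 rose and none fell (1 lower at an unadjusted p under 0.05 with edgeR, 1 by DESeq2, 0 by limma voom). Nr1h3, the gene of LXRα, had 74.8, 82.7, 84.3 and 77.2 CPM in antiCD47 livers, against 67.7, 66.2, 69.3 and 63.9 CPM in IgG livers (log2 fold change 0.26 ± 0.06, edgeR adjusted p = 0.034). Abca1, the exporter that loads cholesterol onto apolipoprotein A-I and is also expressed by macrophages, had 198, 420, 305 and 202 CPM in antiCD47 livers, against 157, 175, 130 and 153 CPM in IgG livers (log2 fold change 0.87 ± 0.23, edgeR adjusted p = 0.041). The order of Abca1 over the antiCD47 livers, 2, 3, 4 and 1 from high to low, was that of the summed macrophage markers, at 708, 573, 462 and 406 CPM. In the IgG livers the orders were opposite, with IgG 2 highest in Abca1 and lowest in the macrophage sum at 226 CPM. A part of macrophages in the Abca1 result was not tested. Abca1 rose and Abcg8, an LXR target in liver as well, fell. Of the 8 genes of the LXR and efflux list, 4 had a negative fold change and 4 a positive one. A part of LXR in these changes was not tested.

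Among 10 genes of endosomal and membrane sterol transfer, 1 rose and none fell (3 lower at an unadjusted p under 0.05 with edgeR, 2 by DESeq2, 0 by limma voom). Osbpl9, an oxysterol-binding-protein relative, had 172, 181, 191 and 181 CPM in antiCD47 livers, against 143, 163, 134 and 136.5 CPM in IgG livers (log2 fold change 0.33 ± 0.08, edgeR adjusted p = 0.030). Lrp1, a lipoprotein remnant receptor, averaged 459.5 ± 45.8 CPM in antiCD47 livers and 339.9 ± 57.3 CPM in IgG livers, and its edgeR adjusted p was 0.055. With edgeR, leaving out single libraries ended the calls of Srebf1, Nr1h3, Abca1 and Osbpl9 when antiCD47 3, IgG 1, IgG 3 or IgG 4 was left out (adjusted p 0.073 to 0.115). Without antiCD47 2 these 4 genes missed as well (0.052 to 0.060), and without IgG 2, Nr1h3 and Abca1 did (0.061 and 0.052).

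No gene passed in either direction among 6 of sterol catabolism (2 higher at an unadjusted p under 0.05 with edgeR, 2 called higher by DESeq2, 0 by limma voom). Cyp7b1 and Cyp27a1, hydroxylases of the alternative bile acid route, had log2 fold changes of 0.86 ± 0.25 and 0.23 ± 0.08 (edgeR adjusted p = 0.054 and 0.072). None of 11 accessory and branch enzymes passed (1 lower and 2 higher at an unadjusted p under 0.05 with edgeR, 1 called higher by DESeq2, 0 by limma voom). The nearest were Nus1, of dolichol synthesis, and Erg28, a scaffold of sterol demethylation, at 0.28 ± 0.09 and -0.30 ± 0.12 (edgeR adjusted p = 0.079 and 0.113).

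The 4 genes that supply or use cytosolic acetyl-CoA did not pass either (0 at an unadjusted p under 0.05 with edgeR, 0 called by DESeq2 and by limma voom). Acly, which makes cytosolic acetyl-CoA from citrate, averaged 114.7 ± 25.2 CPM in antiCD47 livers and 161 ± 62.8 CPM in IgG livers. Its levels in antiCD47 livers 1 to 4 were 111.1, 149.6, 89.6 and 108.3 CPM, with antiCD47 2 the highest. Acss2, which makes it from acetate, had 114, 68.1, 81.9 and 64.6 CPM in antiCD47 livers, against 121, 88.8, 83.7 and 94.6 CPM in IgG livers. The antiCD47 1 value of Acss2 was the highest of the antiCD47 group. Without that library Acss2 and Aacs both passed as lower (edgeR adjusted p = 0.047 and 0.030). In the same fit 11.4% of all tested genes were called lower. Aacs, an acetoacetate-activating enzyme, was chosen for mention after its values were seen.

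The authors' deposited table of differential expression lists all 29 genes, with an adjusted p under 0.05 for 3 of them. These were Abcg8 (0.00506), Hmgcs1 (0.04) and Fdft1 (0.0463) in the authors' deposited table, in which 18.4% of the listed genes passed. Its fold change had the sign of the edgeR value for 28 of 29 genes, and the table does not state which group it puts on top. In GENCODE M21, Fdft1 shares 774 exon bases on the opposite strand with Ctsb, a gene at a mean of 732 CPM, so reads of the abundant neighbour could enter its count if strand was not used. Cyp51, Ggps1 and Tm7sf2 also share 166 to 532 exon bases with expressed neighbours.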

How the data were processed

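Livers of 4 antiCD47 and 4 IgG mice were analysed, grouped by their titles and treatment labels; the study describes 7 to 8 mice a group. The deposited table holds estimated counts per Ensembl gene in whole numbers (raw counts, by its name), 1 column a library. The submitters' processing notes list Salmon 1.3.0, DESeq2 1.32.0 and GRCm39, with no roles; no source used here states strand or annotation release. Per the file headers, the comparison table by the authors gives a mean normalized signal, log2 fold changes with errors, p-values, and a score named rank (unused).

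The 29 genes and all lists were chosen with earlier results of these data known. Counts were scaled by TMM, filtered by filterByExpr, and tested with edgeR 4.0.16 quasi-likelihood (R 4.3.3) without covariates, Benjamini-Hochberg adjusted over 15472 genes; DESeq2 1.42.0 and limma 3.58.1 were alternatives. Of 54309 genes, 27899 had no count. Library totals were 43691472 to 55477484 counts, and CPM use these totals after TMM scaling. The biological coefficient of variation was 16.7%. Ratios of gene pairs used a prior count of 0.5 and exact permutation tests (scipy 1.17.1). Exon lengths and overlaps came from GENCODE M21 (GRCm38), promoters from RefSeq (GRCm38.p6); the coordinates are of that build and not of the build named for the counts. No pair of libraries within a group was alike within sampling noise (lowest chi-square per degree of freedom 25.96). Named genes were all 29, with levels in every library for those past the threshold and for 12 chosen ones, and from each related list those past the threshold and up to 2 with the smallest p, of which 1 gene is not reported here; other levels were added after values were seen. All gene symbols of the set came from the deposited table. Left out or changed in turn were the scaling, the filter, the tool, each library, the threshold and a replicate block.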

Additional observations from a re-analysis of the deposited data

Results flagged for a closer look

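A total of 8 values stood apart from the other 3 of their group by Dixon's test at 95%, of 62 groups of 4 examined, where chance gives about 1 in 20. Of these, 4 were in antiCD47 1, all high. There Idi1 was at 61.0 CPM (27.0 to 31.4 CPM in the other antiCD47 livers) and Fdps at 131 CPM (46.9 to 54.2). Msmo1 was at 44.5 CPM (23.0 to 25.0) and Dhcr7 at 40.2 CPM (23.3 to 25.5). All 4 are enzymes of the synthesis pathway read in the same library.

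In antiCD47 2, Mvd was at 10.1 CPM (3.82 to 4.88 in the other antiCD47 livers) and Abcg5 at 104 CPM (75.6 to 79.2). In IgG 2, Fdps was low at 69.6 CPM (103 CPM in each of the other IgG livers). The log2 ratio of Abcg8 to Abcg5 was also low in IgG 2, at -0.107 (0.121 to 0.13 in the other IgG livers).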

How the results depend on the processing

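Of 551 gene values over 19 alternatives, 485 kept their direction and side of the threshold, 46 newly passed, 4 no longer passed (Abcg8 without antiCD47 3, IgG 1, IgG 3 or IgG 4) and 16 in 6 genes changed sign; no gene with an unadjusted p under 0.05 changed sign. The count of genes lower was 9 with library totals alone (20.4% of all genes), 2 with upper quartile scaling (6.26%), 6 with DESeq2 (9.64%), and 11 with voom quality weights (14.2%), which also called 1 higher, Insig2 (13.8%). At an adjusted p of 0.1 it was 5, with 1 higher (11.1% and 12.0%). Leaving out single libraries gave 0 to 12. Library totals alone shifted the median of all genes to -0.19 and that of the 29 to -0.34, and turned Ggps1 (-0.12), Cyp51 (-0.14), Tm7sf2 (-0.0597) and Srebf2 (-0.18). Upper quartile scaling turned Cyp51 (-0.0122) and Srebf2 (-0.056), and quality weights turned Cyp51 (-0.16) and Srebf2 (-0.0103). With single libraries left out, the log2 fold change ran from -0.164 to 0.168 for Cyp51, -0.042 to 0.0666 for Srebf2, -0.214 to 0.0275 for Acat2 and -0.188 to 0.025 for Pmvk. The cause was not tested. Among the related genes, Nr1h3 (0.07) and Osbpl9 (0.14) no longer passed with library totals alone (edgeR). Nr1h3 also missed with upper quartile scaling (edgeR adjusted p = 0.066) and with no filter on low counts (0.055). It passed in 9 of 18 alternatives. The log2 ratio of Abcg8 to Abcg5 ran from -0.356 to -0.26 and that of Insig1 to Insig2 from -0.711 to -0.296 with single libraries left out.

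Deviations of same-numbered libraries had correlations of 0.0316, 0.157, -0.0232 and 0.0345, and 1 of 4 pairs fitted best with its own number. These values had no reference to be set against, so whether the numbers pair the livers was not settled. With the replicate block, 5 genes were lower (7.83% of all genes) and 1 higher, Ebp (7.85%). The ratio difference in same-numbered pairs was -0.298 for Abcg8 to Abcg5 (exact sign-flip permutation test, p = 0.125, the smallest possible). For Insig1 to Insig2 it was -0.512 (exact sign-flip permutation test, p = 0.375).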
